A study of Mus musculus with 15 samples.

Results

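Ptp4a3, Lrrc10b, Hcrtr1, Bcas3 and Asb2 are 5 genes outside the contractile apparatus that were chosen by their measured intensity: a probe set of each was lower in Notch3 -/- than in Notch3 +/- brain cells. They were read at all 8 probe sets that carry only one of these symbols, of 45101 on the array and of 18194 genes with a symbol of their own. Asb2, Hcrtr1 and Lrrc10b have 1 probe set each, Ptp4a3 has 2 and Bcas3 has 3. The measurements come from 15 Affymetrix mouse arrays of male C57BL6J mice aged 10 to 12 weeks. FACS-sorted brain cells labelled SMC/pericyte (mural cells of vessels, that is smooth muscle cells or pericytes) came from 5 Notch3 -/- mice (arrays A, B, C, D and F) and 4 Notch3 +/- mice (E, G, I and H). Aorta explants gave 3 Notch3 -/- arrays (5558, 5559 and 6167) and 3 Notch3 +/- arrays (5556, 5561 and 6166). Every comparison of genotypes is thus between no intact copy and 1 intact copy of Notch3, and wild-type mice were not analysed here. The labels say neither how the allele was made nor which mouse each aorta array came from, so the spread behind aorta p-values may be technical.

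Notch3 is a receptor that, once its ligand is bound, is cut to release an intracellular part that acts in the nucleus with the DNA-binding protein RBPJ. In brain vessels it is known as a receptor of mural cells, where its loss disturbs the smooth muscle of small arteries. The genes described here belong to no common family. Ptp4a3 (also PRL-3) is a small prenylated phosphatase of the PRL family, and Asb2 is the substrate-recognition subunit of a Cullin-5 ubiquitin ligase that targets filamins. Hcrtr1 is a G-protein-coupled receptor for orexin peptides, best known in neurons. Bcas3 (also rudhira) is a cytoskeleton-associated protein known from endothelial cell migration and vessel development in mice, and in human cells it acts at autophagic membranes with the counterpart of D230025D16Rik. Lrrc10b is a little-studied leucine-rich repeat protein related to the heart protein Lrrc10.

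Promoters of the members are shown as a description, with a search that includes the known motif of the DNA-binding partner of Notch. Shared control of the members was not tested. RefSeq windows of build GRCm38.p6, from 250 bases before to 50 bases after an annotated start, were found for 4 of the 5 genes, with 3 starts for Hcrtr1, 2 for Asb2 and 1 each for Bcas3 and Lrrc10b. Ptp4a3 (chromosome 15) was not among them. Windows were searched on both strands for the RBPJ site GTGGGAA, for its core TGGGAA, which every GTGGGAA contains, and for the CArG box, the site of serum response factor. Of the 4 windows printed here, 2 hold a match, in capitals, and the other Asb2 start and Lrrc10b are shown for contrast. The first Asb2 window is chr12:103355952-103356251 on the minus strand, and the capitals mark a CArG box that reads on both strands from position -64. The second Asb2 window is chr12:103338341-103338640, minus strand. The Hcrtr1 window is the second start, chr4:130138502-130138801 on the minus strand, with TGGGAA from position -248. The Lrrc10b window is chr19:10457398-10457697, minus strand. Positions are counted back from the annotated start.
Asb2 start 1: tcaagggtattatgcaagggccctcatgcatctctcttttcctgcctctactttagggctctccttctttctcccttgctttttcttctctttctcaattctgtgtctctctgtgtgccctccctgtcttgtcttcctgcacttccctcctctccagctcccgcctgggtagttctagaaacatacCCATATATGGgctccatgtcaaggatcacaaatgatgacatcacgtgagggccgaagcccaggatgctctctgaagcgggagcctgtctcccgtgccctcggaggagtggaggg
Asb2 start 2: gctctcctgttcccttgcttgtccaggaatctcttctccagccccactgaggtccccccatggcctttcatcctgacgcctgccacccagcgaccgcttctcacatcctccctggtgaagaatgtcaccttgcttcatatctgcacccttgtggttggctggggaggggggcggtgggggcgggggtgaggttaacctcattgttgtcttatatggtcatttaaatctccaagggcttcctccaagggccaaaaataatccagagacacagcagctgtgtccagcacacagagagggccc
Hcrtr1 start 2: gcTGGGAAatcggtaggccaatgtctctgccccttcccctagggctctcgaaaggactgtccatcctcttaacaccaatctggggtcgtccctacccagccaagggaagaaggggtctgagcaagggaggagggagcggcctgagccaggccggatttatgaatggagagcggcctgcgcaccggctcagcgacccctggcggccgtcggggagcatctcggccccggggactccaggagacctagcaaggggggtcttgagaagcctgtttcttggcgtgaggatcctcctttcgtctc
Lrrc10b: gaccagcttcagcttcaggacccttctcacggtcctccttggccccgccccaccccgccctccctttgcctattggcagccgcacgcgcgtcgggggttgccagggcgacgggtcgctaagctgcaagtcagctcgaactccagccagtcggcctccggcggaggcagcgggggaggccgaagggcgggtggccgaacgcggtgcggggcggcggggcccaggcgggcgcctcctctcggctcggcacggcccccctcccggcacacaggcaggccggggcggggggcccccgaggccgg
None of the 7 windows of the members held GTGGGAA, which 6.38% of all 32851 windows did. TGGGAA stood in the 1 Hcrtr1 window shown, against 25.6% of all windows, and the CArG box in the 1 Asb2 window, against 1.63% of all windows. The Lrrc10b window was the richest in G and C of the 7, at 76.3%, and the CArG-bearing Asb2 window the poorest, at 53.0%. A match describes letters in a window and not a bound site, and a window without one says nothing about the factor.

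The authors' values are linear probe-set intensities scaled to a target of 150 on each array. Differences are given as log2(value + 16), which understates changes of dim probe sets, and probe sets below the median brightness of a comparison were not tested. Notch3 checked the genotype labels: its brighter probe set read 150.3 to 249 in Notch3 -/- and 2326 to 2805 in Notch3 +/- brain cells, and 80.1 to 146 in Notch3 -/- and 362 to 453 in Notch3 +/- aorta. Precision is limited by the small number of arrays in each group. The brain genotype difference chose the members, so it is described here without a test.

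Ptp4a3, the phosphatase, was lower in every knockout brain array at 1 of its probe sets. At probe set 1418181_at it read 134, 114, 127, 169.7 and 114 in Notch3 -/- brain arrays A, B, C, D and F. In Notch3 +/- brain arrays E, G, I and H it read 289, 342, 371 and 315. Every Notch3 -/- array lay below every Notch3 +/- array, with array D the highest of the knockouts, and the log2 difference was -1.23. The other Ptp4a3 probe set, 1418182_at, which the platform annotation assigns to the same transcript record, did not separate the genotypes. It read 45.0 to 83.7 in Notch3 -/- and 53.0 to 85.2 in Notch3 +/- brain cells, a log2 difference of -0.14. That probe set was also at 43.8 to 79.2 in Notch3 -/- aorta and 43.8 to 66.3 in Notch3 +/- aorta, so it differed little between any of the groups.

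Asb2, the ubiquitin ligase subunit, read 153, 172, 119.6, 133 and 136 in Notch3 -/- brain arrays A, B, C, D and F at 1428444_at. In Notch3 +/- brain arrays E, G, I and H it read 377, 252, 277 and 428. The Notch3 +/- arrays were the more scattered, with E and H above G and I, and none came as low as a Notch3 -/- array. The log2 difference was -1.12.

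Hcrtr1, the orexin receptor, had the widest scatter among knockouts of the 5 genes. At 1436295_at it read 34.0, 48.9, 57.9, 68.0 and 15.2 in Notch3 -/- brain arrays A, B, C, D and F. In Notch3 +/- brain arrays E, G, I and H it read 153, 142, 123 and 155. Its coefficient of variation was 46.2% in Notch3 -/- and 10.4% in Notch3 +/- brain cells, with array F the lowest. The log2 difference was -1.46, and -1.24 without array F. It depended most of the 5 on the constant added before the logarithm, at -1.81 with a pseudocount of 1 and -0.95 with 64, so the order of the 5 genes by size is not given.

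Bcas3 was lower at the brightest of its probe sets, 1428454_at. It read 68.2, 52.5, 81.7, 123 and 112 in Notch3 -/- brain arrays A, B, C, D and F. In Notch3 +/- brain arrays E, G, I and H it read 189, 203, 242 and 257. D and F were the highest knockouts, still below E, the lowest Notch3 +/- array, and the log2 difference was -1.25. Its other probe sets, 1458557_at and 1423528_at, read between 1.8 and 38.8 across both brain genotypes, failed the brightness filter and overlapped fully between them, with log2 differences of -0.21 and -0.10.

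Lrrc10b had the tightest knockout values. At 1457132_at it read 135, 145, 132, 137 and 112 in Notch3 -/- brain arrays A, B, C, D and F. In Notch3 +/- brain arrays E, G, I and H it read 408, 327, 348 and 396. Its coefficient of variation was 9.46% in Notch3 -/- and 10.4% in Notch3 +/- brain cells, and the log2 difference was -1.38.

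**Figure D1:**
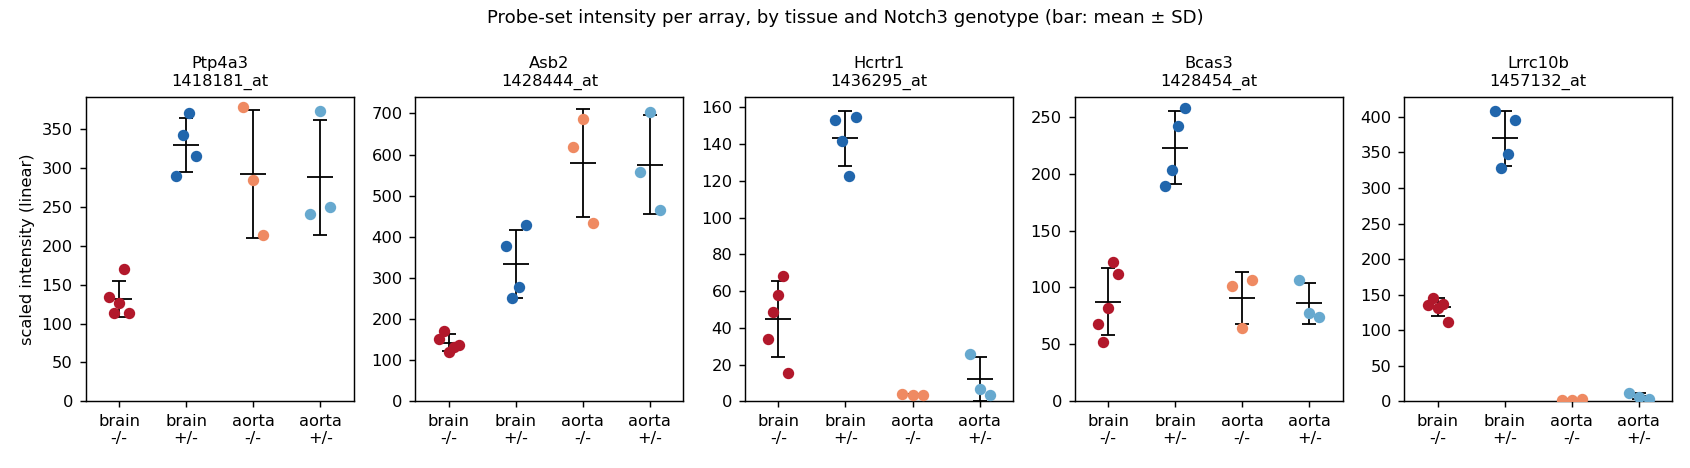
Scaled linear intensity of the probe set of each gene that was lower in Notch3 -/- brain cells, on an axis of its own per gene, with 1 point per array and bars for mean ± SD (n = 5 brain -/-, 4 brain +/-, 3 in each aorta group). Brain -/- points lie below all brain +/- points in each panel. Aorta genotypes overlap except for Lrrc10b, whose aorta -/- values (up to 2.7) lie just under the lowest aorta +/- value (3.0). Lrrc10b and Hcrtr1 sit near 0 in most aorta arrays, where no change can be read.

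Over the 5 genes, each at its probe set with the lowest brain difference, the median log2 difference was -1.25. It was 0.01 over the 22519 probe sets tested. The members' median sums up the values that chose them and is a description. Each had 1 probe set at which every Notch3 -/- array lay below every Notch3 +/- array, as 1.85% of tested probe sets did. That share is the background of a measure that chose the genes, and nothing is read from it. Leaving out any 1 brain array left the median between -1.36 and -1.19. The same arrays chose the genes, so this range is no separate support for the difference. No single knockout array carried all the low values: array F was lowest for 3 genes, B for 1 and C for 1, while D was highest for 3 and B for 2.

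**Figure D2:**
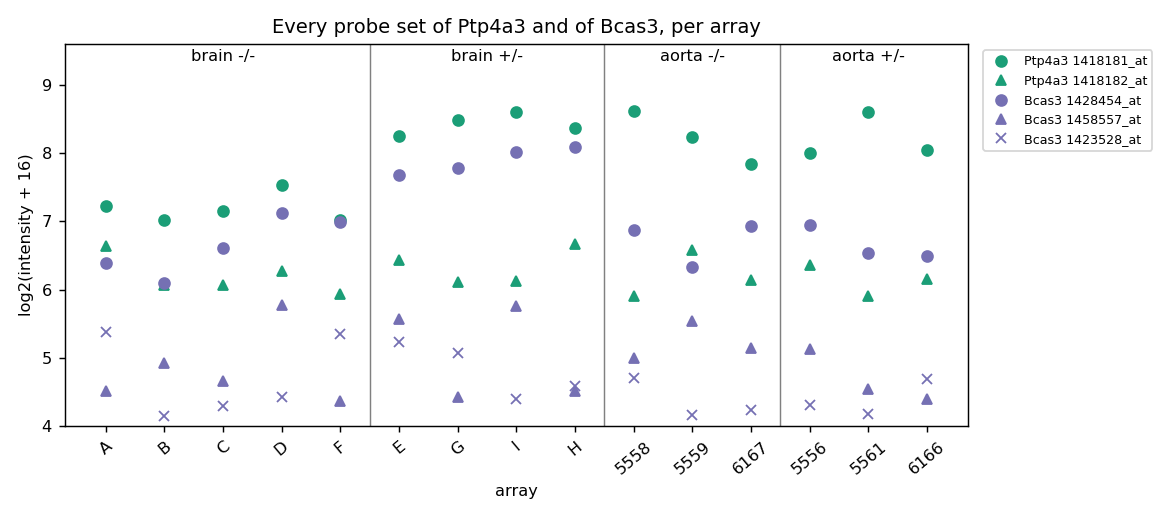
Log2(intensity + 16) of both Ptp4a3 probe sets and all 3 Bcas3 probe sets in each of the 15 arrays. Only Ptp4a3 1418181_at and Bcas3 1428454_at have every brain -/- array below every brain +/- array, and the other probe sets overlap between the brain genotypes.

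Aorta arrays took no part in the choice of genes, so the same genotype difference could be tested there. No member passed 5% between genotypes in aorta: 0 of the 3 that were bright enough to test did, and 0.0% of all 22519 probe sets tested did by limma (980 had an unadjusted p under 0.05). Ptp4a3 read 378, 284 and 214 in Notch3 -/- arrays 5558, 5559 and 6167, against 241, 373 and 249 in Notch3 +/- arrays 5556, 5561 and 6166. The log2 difference was 0.01 (SE 0.22, 95% interval -0.48 to 0.51, limma adjusted p = 0.999).

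Asb2 read 619, 687 and 433 in Notch3 -/- aorta and 558, 703 and 466 in Notch3 +/- aorta, a log2 difference of 0.00 (95% interval -0.43 to 0.44, limma adjusted p = 0.999). Bcas3 read 101, 64.1 and 107 in Notch3 -/- aorta and 107, 77.2 and 73.9 in Notch3 +/- aorta (log2 0.06, 95% interval -0.40 to 0.51, limma adjusted p = 0.999). The sign of all 3 aorta differences turned when single arrays were left out.

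Lrrc10b and Hcrtr1 were too dim in aorta to test. Lrrc10b read 2.5, 2.3 and 2.7 in Notch3 -/- aorta and 11.4, 6.7 and 3.0 in Notch3 +/- aorta. Hcrtr1 read 3.8, 3.3 and 3.5 in Notch3 -/- aorta and 25.8, 6.6 and 3.7 in Notch3 +/- aorta. Array 5556 was the highest Notch3 +/- array for both, the arrays carry no detection calls, and no change can be read at these levels. The brain and aorta genotype differences are set side by side here and their difference was not tested, since the brain values chose the genes.

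**Figure D3:**
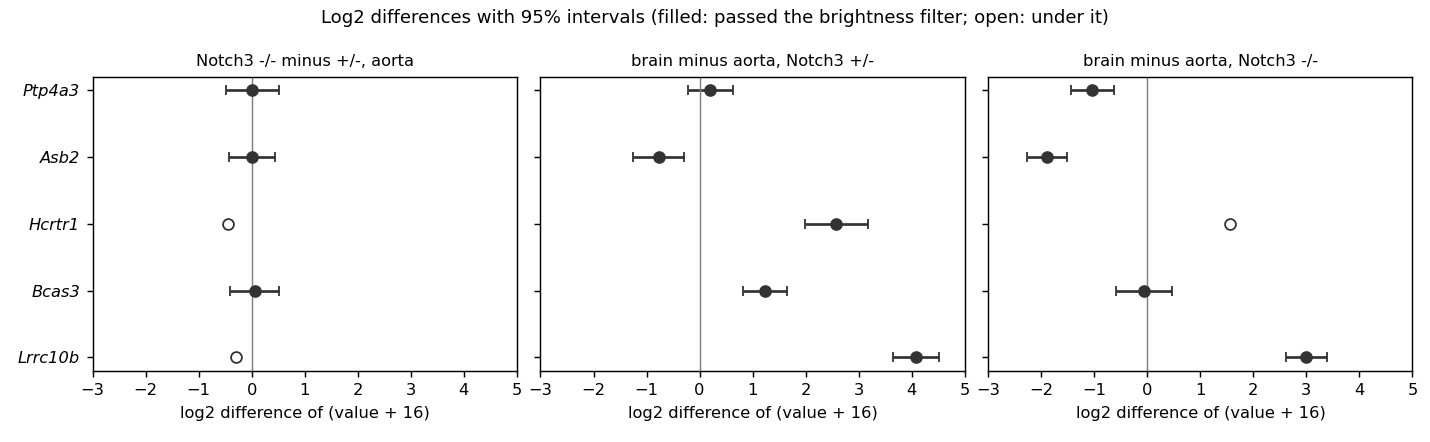
Log2 differences of (value + 16) with 95% intervals for the 5 genes in 3 comparisons: Notch3 -/- minus +/- in aorta, whose arrays took no part in choosing the genes, and brain minus aorta within each genotype, which share the brain arrays that did. Filled points passed the brightness filter and open points lay under it. The 3 filled aorta points lie at 0.00 to 0.06, and the tissue differences run from -1.89 for Asb2 in Notch3 -/- to 4.08 for Lrrc10b in Notch3 +/-, a size that changes with the pseudocount.

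Between tissues the genes split into unlike patterns. In the Notch3 +/- arrays, Lrrc10b averaged 369.7 ± 38.4 in brain cells (SD, n = 4) and 7.01 ± 4.23 in aorta (n = 3). Its log2 difference was 4.08, but 2.61 with a pseudocount of 64 and 5.68 with 1. Hcrtr1 averaged 143 ± 14.9 in brain and 12.0 ± 12.0 in aorta, a log2 difference of 2.58 that was 1.46 with a pseudocount of 64 and 3.87 with 1. Both passed the brightness filter only through the brain arrays, so they had to differ, and no test is given for them. Bcas3 was higher in brain cells too, at 223 ± 32.0 in brain and 86.0 ± 18.1 in aorta (log2 1.23, limma adjusted p = 3.01e-04). That p-value rests on brain arrays that took part in choosing the genes, so it is not independent of the choice.

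Asb2 ran the other way, at 333 ± 82.9 in Notch3 +/- brain cells and 576 ± 119.6 in Notch3 +/- aorta (log2 -0.77, limma adjusted p = 0.0122). That call was lost without aorta array 5561 (log2 -0.62, limma adjusted p = 0.0689). Ptp4a3 did not pass, at 329 ± 35.1 in brain and 288 ± 73.7 in aorta (log2 0.21, 95% interval -0.21 to 0.62, limma adjusted p = 0.382). Such differences were common on the array: 26.5% of tested probe sets passed higher in brain and 25.2% lower. RNA of the tissues was extracted by different methods, which cannot be told apart from tissue. The brain Notch3 +/- arrays also took part in choosing the genes, so the p-values of the members here are not independent of that choice.

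In the Notch3 -/- arrays 33.6% of tested probe sets passed higher in brain and 28.9% lower. Ptp4a3 was lower in brain cells than in aorta there, at 132 ± 23.0 in brain (n = 5) and 292 ± 82.2 in aorta (n = 3; log2 -1.04, limma adjusted p = 3.07e-04). Asb2 was lower still relative to aorta, at 143 ± 20.3 in brain and 579.6 ± 131.5 in aorta (log2 -1.89, limma adjusted p = 5.37e-07). Lrrc10b averaged 132 ± 12.5 in brain and 2.50 ± 0.215 in aorta, a log2 difference of 3.00 that was 1.56 with a pseudocount of 64. It too passed the filter only through the brain arrays, and no test is given. Bcas3 did not pass, at 87.4 ± 29.4 in brain and 90.7 ± 23.2 in aorta (log2 -0.07, 95% interval -0.60 to 0.46, limma adjusted p = 0.819). Hcrtr1 averaged 44.8 ± 20.7 in brain and 3.51 ± 0.246 in aorta and was under the filter. The brain Notch3 -/- values were low by choice, so these differences share that choice. Their p-values are not independent of it and are no separate support for lower values in brain.

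By order of level, Notch3 +/- brain cells were thus highest for Bcas3, Hcrtr1 and Lrrc10b. For Bcas3 the other groups overlapped, between 52.5 and 123. For Lrrc10b the Notch3 -/- brain cells came next, with no overlap with aorta. For Hcrtr1 they came next as well, but knockout array F at 15.2 lay below aorta array 5556 at 25.8. For Asb2 the order was Notch3 -/- brain, Notch3 +/- brain and then both aorta groups, which overlapped each other. For Ptp4a3 Notch3 -/- brain was lowest and the other groups overlapped.

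Family members and partners of these genes were read in brain cells from 7 lists. In the fit across all probe sets, 0.142% passed 5% in either direction. Of 33 such genes tested, 1 passed, which was Flna, the filamin A actin crosslinker and a substrate of ASB2. Flna averaged 1043 in Notch3 -/- and 2290 in Notch3 +/- brain cells (log2 -1.14, SE 0.18, limma adjusted p = 0.0204). It was known from earlier results of these data to be low, and it did not pass without array G or without array F. The muscle filamin Flnc was at 0.38 on the log2 scale (limma adjusted p = 0.555).

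Relatives of Ptp4a3 did not pass in either direction. Of 6 tested genes of the PRL phosphatases and the CNNM magnesium transporter-like proteins that bind them, 4 were lower, with a median log2 difference of -0.04. Cnnm3 stood at -0.46, Cnnm2 at -0.18 and the CNNM-associated GTPase Arl15 at 0.14 (limma adjusted p between 0.62 and 0.826). Ptp4a2, the near relative of Ptp4a3, stood at 0.06. Ptp4a1 was not analysed here.

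Asb2 had 17 measured relatives in the ASB family, of which 10 were tested, 4 of them lower, and 0 passed by limma (median of the tested, log2 0.01). Asb6 was the lowest of those tested, at 139 in Notch3 -/- and 267 in Notch3 +/- brain cells (log2 -0.80, limma adjusted p = 0.36). Asb9 at -0.89 and Asb17 at 0.51 were too dim to test. Of the Cullin-5 ligase core that ASB proteins join, 6 of 7 genes were tested and 0 passed by limma. The elongin C gene Eloc stood at -0.38, the ubiquitin-like modifier Nedd8 at -0.21 and the RING protein Rnf7 at 0.19.

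Of the rest of the orexin system, the peptide gene Hcrt stood at 112 in Notch3 -/- and 102 in Notch3 +/- brain cells (log2 0.10, limma adjusted p = 0.898). The other receptor gene Hcrtr2, at 21.9 in Notch3 -/- and 34.4 in Notch3 +/- brain cells, was too dim to test. Of 8 genes listed for a BCAS name or for a link to autophagy, 2 were lower and 0 passed by limma. The highest was Bcas1, a myelin-associated gene with only its name in common, at log2 0.69 (limma adjusted p = 0.299). Wdr41 stood at 0.31, Bcas2 at 0.29 and D230025D16Rik at 0.28. Lrrc10 was not analysed here.

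**Figure D4:**
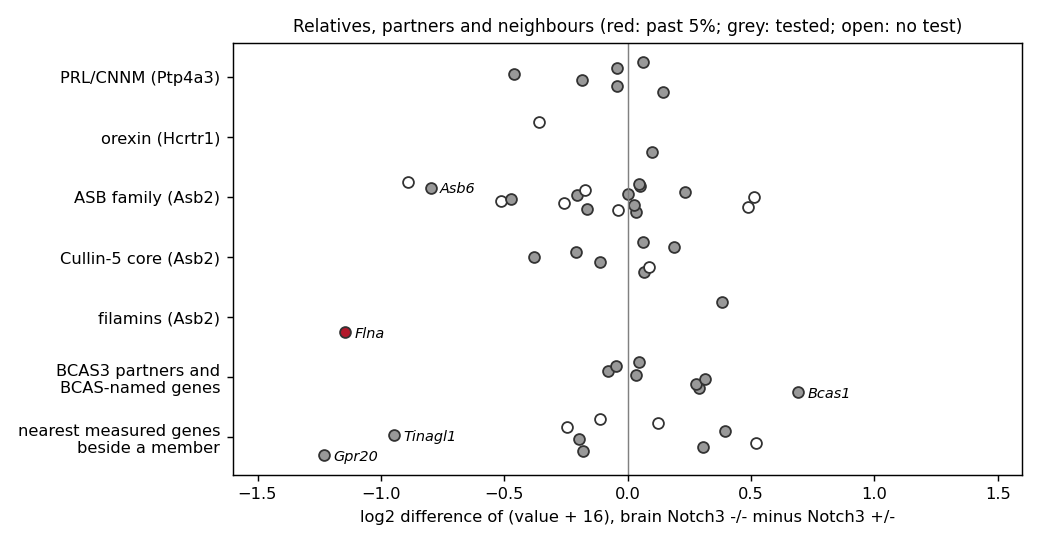
Log2 difference of (value + 16), Notch3 -/- minus Notch3 +/- brain cells, for the relatives and partners of each gene and for the nearest measured genes on either side of a member, at the brightest probe set of each gene (1 point per gene). Flna at -1.14 is the 1 point past 5%, grey points were tested without passing and open points were too dim to test.

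The nearest measured gene on each side of a member in the RefSeq gene order was read for position, and genes without a probe set of their own were passed over. Gpr20, an orphan G-protein-coupled receptor gene beside Ptp4a3, averaged 288 ± 104 in Notch3 -/- (n = 5) and 679.7 ± 162 in Notch3 +/- brain cells (n = 4), without passing (log2 -1.23, limma adjusted p = 0.0679). Tinagl1, a matrix protein gene that lies 1 passed-over gene away from Hcrtr1, averaged 319 ± 69.0 in Notch3 -/- and 645.5 ± 223 in Notch3 +/- brain cells (log2 -0.95, limma adjusted p = 0.171). The other measured neighbours lay closer to 0. They were Adgrb1 (-0.18), with 14 genes passed over between it and Ptp4a3, Syt7 (0.30) beside Lrrc10b, Pef1 (-0.20) beside Hcrtr1 and Ppm1d (0.39) beside Bcas3, with limma adjusted p between 0.627 and 0.93. Ppp1r32 and Gm15523, next to Lrrc10b and Asb2, were too dim to test, as were 2610027K06Rik, 3 passed-over genes from Bcas3, and Fam181a, 1 from Asb2.

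The closest profiles over all 15 arrays were found by root mean square distance between log2 profiles centred on their means, among 11981 genes. Since the distance includes the brain genotype difference, it shares the choice of the members and is a description. Lrrc10b lay nearest to Pln, the phospholamban gene of the sarcoplasmic reticulum (0.27 log2 units), and to Gpr20 (0.36). Hcrtr1 lay nearest to Srl, the sarcoplasmic reticulum protein sarcalumenin (0.38), and to Gm13889 (0.42). Asb2 lay nearest to Get3, a factor for inserting tail-anchored membrane proteins (0.27), and to Mustn1, a small gene of the musculoskeletal system (0.29).

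Pln averaged 1151 ± 208 in Notch3 -/- and 2486 ± 620.3 in Notch3 +/- brain cells, and 85.6 ± 12.1 in Notch3 -/- and 139 ± 15.4 in Notch3 +/- aorta. Like Lrrc10b it was higher in either brain group than in aorta, and its brain difference of -1.08 did not pass (limma adjusted p = 0.0521). Mustn1 averaged 93.7 ± 17.4 in Notch3 -/- and 198 ± 81.5 in Notch3 +/- brain cells, and 422 ± 47.2 in Notch3 -/- and 480.2 ± 128 in Notch3 +/- aorta. Like Asb2 it was higher in aorta than in either brain group. Ptp4a3 lay nearest to the plexin gene Plxnb2 (0.31) and to Cfap410 (0.31), and Bcas3 to Fam53b (0.36) and the kinase gene Map3k11 (0.37). None of these 10 nearest genes passed 5% between brain genotypes, with limma adjusted p between 0.0521 and 0.326. The brain genotype difference was part of the distance that picked these genes, so these p-values are no independent test of it.

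Contractile genes of smooth muscle were lower in the same brain arrays as the 5 members. All 20 genes of that marker list were lower in Notch3 -/-, and 5 of the 19 tested passed by limma (Casq2, Tagln, Smtn, Myh11 and Myl9), where 0.12% of all tested probe sets passed in the lower direction. That list also holds the sarcoplasmic reticulum genes Casq2 and Pln. The list was chosen with earlier results of these data known, so these counts are a description. The list's median log2 difference was -0.69, beside 0.01 over all probe sets tested. Its summed intensity was 29763 to 47357 in Notch3 -/- and 53638 to 90042 in Notch3 +/- brain cells, with no overlap. The largest terms of that sum did not pass: Acta2 averaged 12910 in Notch3 -/- and 20580 in Notch3 +/- brain cells (limma adjusted p = 0.352), and Tpm2 8735 in Notch3 -/- and 18100 in Notch3 +/- (limma adjusted p = 0.248). Relative to the Notch3 +/- mean, Ptp4a3, Asb2, Hcrtr1 and Lrrc10b were below the contractile median in 5 of 5 knockout arrays and Bcas3 in 3 of 5. That follows in large part from how the members were picked, and nothing is read from it. Log2 differences of the list ran from -1.81 for Casq2 to -0.06 for Vcl. On this scale Casq2, Myh11 (-1.67) and Tagln (-1.56) were lower than every member, with Hcrtr1 at -1.46. Hcrtr1 stood at -1.81 with a pseudocount of 1. Values of the list with that pseudocount are not given here, so no order between these genes and Hcrtr1 is read. In aorta the contractile sum was 96887 to 105295 in Notch3 -/- and 98187 to 100738 in Notch3 +/-. In bulk samples fewer cells of a type and less RNA per cell cannot be told apart, and the part of cell makeup in the members' difference was not tested.

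**Figure D5:**
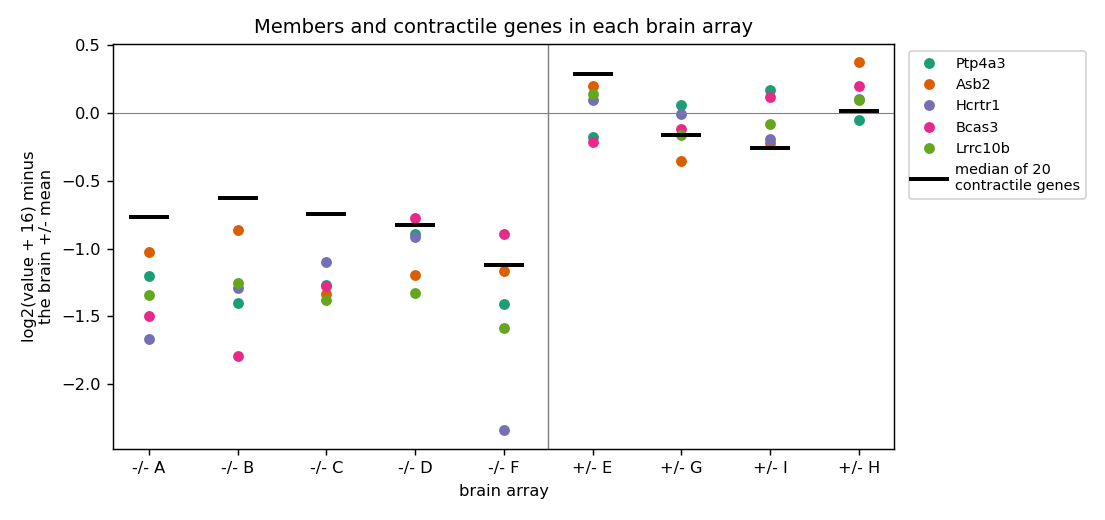
Log2(value + 16) minus the mean of the brain +/- arrays, for the 5 genes (coloured points) and for the median of 20 contractile genes (black bars), in each of the 9 brain arrays. The 5 knockout arrays have all points below -0.7, with contractile medians between -1.12 and -0.63, and array F has the lowest Hcrtr1 point at -2.34.

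Markers of other cells were read in the same arrays. Pericyte markers summed to 28728 to 37209 in Notch3 -/- and 29835 to 59874 in Notch3 +/- brain cells, with 8 of 13 lower and 0 of 12 tested past 5% by limma. Fibroblast markers summed to 9379 to 14668 in Notch3 -/- and 6119 to 9717 in Notch3 +/-, with 7 of 8 higher, a median log2 difference of 0.80 and 0 past 5% by limma. The sort also held endothelial markers, at 36493 to 46164 in Notch3 -/- and 33713 to 42984 in Notch3 +/-. Oligodendrocyte markers summed to 30601 to 43895 in Notch3 -/- and 26800 to 38371 in Notch3 +/-, and astrocyte markers to 19290 to 31907 in Notch3 -/- and 12379 to 34052 in Notch3 +/-. Markers of microglia and macrophages summed to 9254 to 17494 in Notch3 -/- and 9237 to 16905 in Notch3 +/-. Neuron markers summed to 800 to 1317 in Notch3 -/- and 629 to 1695 in Notch3 +/- brain cells. None of these lists had a member past 5% by limma, and their ranges overlapped between genotypes.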

How the data were processed

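Expression of 15 samples was measured on Affymetrix mouse 430 2.0 arrays with 15 µg of cRNA each, per the series' design text. The authors deposited one linear intensity for each probe set, brought to a target of 150 per array, and the 2% trimmed mean was 150.0 on every array. The sources used here do not state how probes were summarised or background-corrected, and the table has no detection calls. Brain cells were sorted into column-kit buffer and aorta RNA was extracted with Trizol first, per the labels.

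Of 45101 probe sets, the platform annotation gives 34958 a single symbol, 932 more than 1 and 9211 none, and 34754 symbols were updated through Entrez identifiers in a RefSeq table (assembly GRCm38.p6). Groups came from the titles. After leaving out 64 control probe sets, log2(value + 16) was fitted with limma 3.58.1 in R 4.3.3 (intensity trend, two-sided, Benjamini-Hochberg at 5% over all 22519 probe sets at or above the median brightness of the fit). The fits were tested on simulated data. In the brain genotype fit 4% of 1.5-fold, 34% of 2-fold, 74% of 4-fold and 66% of 8-fold changes were recovered. In the aorta genotype fit the shares were 22%, 50%, 80% and 72%. A gene that did not pass may therefore still differ. Comparisons were genotype within aorta, genotype within brain (tested for other genes only), and brain against aorta within each genotype. No array name is shared between groups, and the labels do not say what the names mean. The members, the gene lists and the tests were chosen with earlier results of these data known.

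Named genes were the members at every probe set. Of each list of relatives, genes past 5% and up to 3 with the largest differences at the brightest probe set were named, besides Ptp4a2 and D230025D16Rik, chosen after their values were seen. The 2 nearest profiles and the nearest measured neighbour on each side were also named. Marker lists covered contractile smooth muscle, pericytes, endothelium, astrocytes, neurons, oligodendrocytes, microglia and macrophages, and fibroblasts. Alternatives were pseudocounts of 1 and 64, no brightness filter, quantile normalization, no intensity trend, all 15 arrays in 1 fit, array name series as a block in aorta, and leaving out each array.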

Additional observations from a re-analysis of the deposited data

Results flagged for a closer look

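One array stood apart from its group. At the dim Bcas3 probe set 1458557_at, Notch3 -/- brain array D read 38.8, against 14.4 for the nearest of the other knockout arrays, a gap of 0.716 of the group's range, just past Dixon's limit for 5 samples. Over the 16 groups of brain values examined, chance flags about 1 in 20. That probe set lay under the brightness filter and supports no comparison.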

How the results depend on the processing

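The median log2 difference of the 5 genes in brain, -1.25, moved to -0.95 with a pseudocount of 64, and lay between -1.36 and -1.19 with any 1 array left out. These brain arrays chose the genes, so both are a description. The number of brain probe sets past 5%, 32, became 50 with a pseudocount of 64, 18 without the brightness filter and 137 with all 15 arrays in 1 fit, and ranged from 10 (without H) to 38 (without E) with single arrays left out; it was 15 without G, 21 without C and 14 without D. In aorta the 0 probe sets past 5% became 2 with all 15 arrays in 1 fit and up to 7 with single arrays left out (7 without 5556 or 6167, 1 without 5559); 0 members passed under any alternative. The relatives past 5% in brain numbered 0 without G or without F and 1 otherwise.

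Aorta differences near 0 changed sign: Asb2 was -0.013 under quantile normalization, and with single arrays left out Ptp4a3 ranged from -0.18 to 0.21, Bcas3 from -0.058 to 0.25 and Asb2 from -0.14 to 0.19. For brain minus aorta in Notch3 -/-, Bcas3 ranged from -0.264 to 0.067 with single arrays left out. The causes were not tested. Hcrtr1 in the Notch3 +/- tissue comparison fell under the filter with all 15 arrays, and Lrrc10b in the Notch3 -/- one with a pseudocount of 1, so neither was tested there. No paired analysis was possible because no array name is shared between groups and the labels give no other pairing. The name series of the aorta arrays, fitted there as a block, left 0 members and 0 probe sets past 5%. Without detection calls, levels of dim probe sets have no stated limit.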
